A study of Arabidopsis thaliana with 16 samples.

Results

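The glutathione S-transferases of Arabidopsis thaliana were followed in leaves of 4 genotypes with and without avrB. The members were the 44 listed loci of the tau class (28 loci, symbols GSTU), the phi class (13, GSTF), the zeta class (2, GSTZ) and the theta class (1, GSTT). The ATH1 array carries 22746 probe sets besides its controls, and 13 of them were annotated to exactly 1 of these loci. They measure 11 tau genes and 2 phi genes. The tau genes are GSTU15 (AT1G59670), GSTU16 (AT1G59700), GSTU18 (AT1G10360), GSTU20 (AT1G78370), GSTU21 (AT1G78360), GSTU22 (AT1G78340), GSTU23 (AT1G78320), GSTU25 (AT1G17180), GSTU26 (AT1G17190), GSTU27 (AT3G43800) and GSTU28 (AT1G53680), and the phi genes are GSTF4 (AT1G02950) and GSTF13 (AT3G62760). The other 31 loci, among them every zeta and theta locus, were not analysed here, so the results describe mostly tau genes and are not an account of the whole family.

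Glutathione S-transferases join the tripeptide glutathione to reactive, electrophilic compounds. The conjugates are then carried into the vacuole or out of the cell, and this route is how plants detoxify herbicides and products of oxidative stress. Tau and phi are large classes in plants, and many of their genes respond to pathogens, salicylic acid or xenobiotics. Glutathione also binds nitric oxide to form S-nitrosoglutathione, which S-nitrosoglutathione reductase breaks down.

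The study used leaf tissue of 4-week-old plants, and each of its 8 groups held 2 arrays. The atgsnor1-1 and atgsnor1-3 lines carry insertions at the gene of S-nitrosoglutathione reductase. As background, atgsnor1-1 is known to have raised activity of that enzyme and atgsnor1-3 to have lost it. The sid2 line lacks the isochorismate synthase ICS1, through which most pathogen-induced salicylic acid is made. Its allele is not stated in the labels, and the title of its second avrB array names both replicate numbers, so whether that array is a separate second replicate is not certain. Col-0 is the wild type. Each genotype was sampled 6 h after avrB and untreated. AvrB is an effector protein of Pseudomonas syringae that the Arabidopsis resistance protein RPM1 detects, and the labels do not say how it was delivered. No mock-treated group enters the comparisons, so handling and avrB cannot be told apart in any response. Nothing in the labels says that the 2 arrays of a group came from separate plants or pools, so p-values measure the spread between these arrays, which may be technical. The targeted genes themselves were not analysed here.

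Signals are the authors' deposited intensities on a linear scale, in arbitrary units scaled so that the trimmed mean of every array was 100.01. The median probe set of an array read 33.0 to 40.8 units, and the 2 arrays of a group correlated at r = 0.884 to 0.934 across probe sets. For 5 of the 16 arrays the closest array belonged to another group, in each case one of the same treatment state. Differences were tested with limma on log2 signals over 13647 probe sets, after the dimmest 40% (mean signal under 20.2 units) were left out. A gene was called where the Benjamini-Hochberg adjusted p was under 0.05 and the log2 difference at least 1 in size. Of the 13 members, 6 passed this filter (GSTU16, GSTU18, GSTU20, GSTU22, GSTU27 and GSTF4) and 7 did not. The geometric means of the members nearest to the filter were 24.0 units for GSTU22 and 24.7 for GSTF4 on the inside, and 12.3 for GSTU23 and 10.5 for GSTU26 on the outside. Members below the filter are read from their signals and from the same model fitted to all 22746 probe sets.

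**Figure D1:**
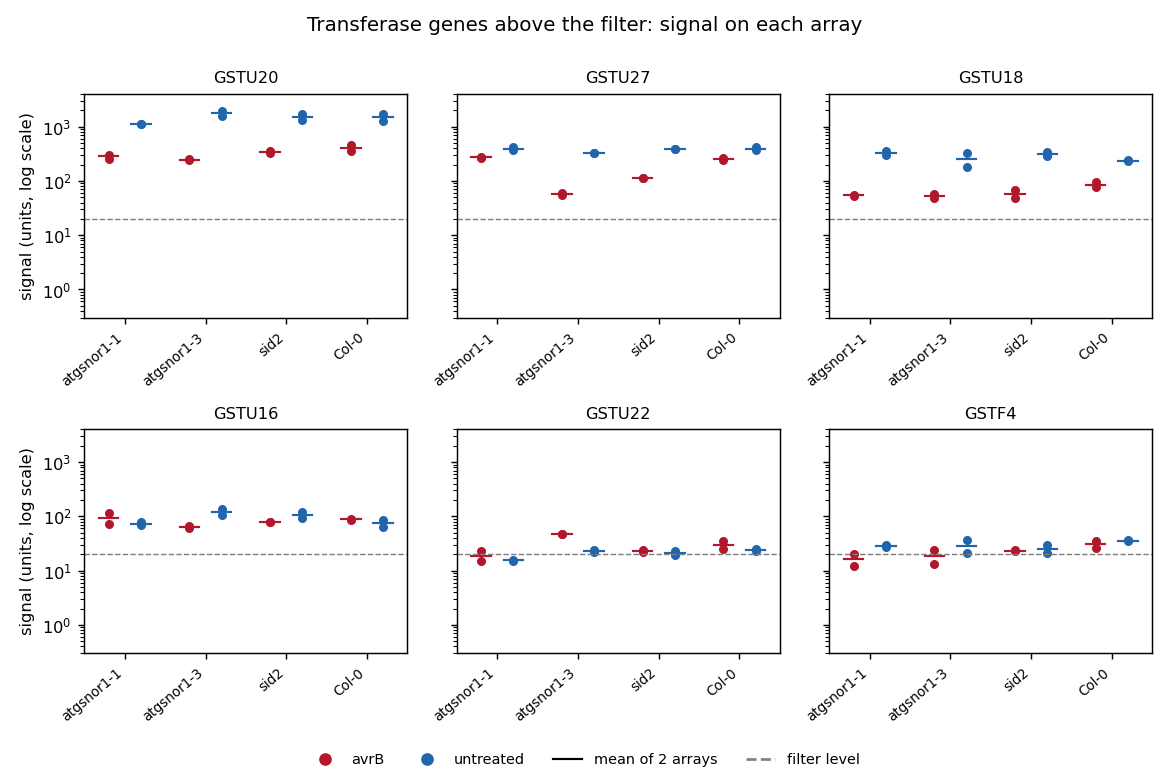
Signal of the 6 transferase genes above the filter on each of the 16 arrays, in arbitrary units on a log axis, with avrB (red) left of untreated (blue) in each genotype. Points are single arrays, short bars the mean of 2 arrays, and the dashed line the filter level of 20.2 units. GSTU20 and GSTU18 are lower after avrB in every genotype, while GSTU27 is at 55.1 to 114 units after avrB in atgsnor1-3 and sid2 and at 246 to 280 units after avrB in atgsnor1-1 and Col-0.

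GSTU18 and GSTU20 fell after avrB in all 4 genotypes. GSTU20 is known to bind FIN219, the jasmonate-conjugating enzyme also called JAR1, in light signalling. It had the highest signal of the 13 members in untreated leaves, although signals of different probe sets do not rank their transcripts. GSTU20 read 259 and 306 units after avrB in atgsnor1-1, against 1132 and 1144 untreated. In atgsnor1-3 it read 242 and 253 units after avrB, against 1606 and 1975 untreated. In no genotype did its avrB and untreated arrays overlap, which was also so for 67.9% of all probe sets in atgsnor1-1, 75% in atgsnor1-3, 73.3% in sid2 and 62.3% in Col-0. The sid2 arrays gave 360 and 325 units after avrB, against 1681 and 1336 untreated. Col-0 gave 357 and 464 units after avrB, against 1686 and 1285 untreated. The log2 difference was -2.02 ± 0.18 in atgsnor1-1, -2.85 ± 0.18 in atgsnor1-3, -2.13 ± 0.18 in sid2 and -1.85 ± 0.18 in Col-0 (± SE, limma). The largest of the 4 limma adjusted p-values was 3.22e-06. The atgsnor1-3 response was lower than that of Col-0 by a log2 difference of -0.99 ± 0.26 (limma adjusted p = 0.0126), which lies just under the size required for a call.

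GSTU18 showed the same direction at lower signals. In atgsnor1-1 it read 56.3 and 51.8 units after avrB, against 305 and 353 untreated. The atgsnor1-3 arrays gave 56.9 and 48.3 units after avrB, against 326 and 181 untreated. Untreated atgsnor1-3 arrays thus stood further apart from each other than those of any other untreated genotype. In sid2 GSTU18 read 48.1 and 66.8 units after avrB, against 287 and 345 untreated. In Col-0 the values were 94.5 and 76.1 units after avrB, against 246 and 229 untreated. After avrB, both Col-0 arrays were above all 6 arrays of the other genotypes. The log2 response was -2.60 ± 0.25 in atgsnor1-1, -2.21 ± 0.25 in atgsnor1-3, -2.47 ± 0.25 in sid2 and -1.48 ± 0.25 in Col-0 (± SE), with limma adjusted p-values of 4.19e-04 or less. From the Col-0 response, atgsnor1-1 differed by -1.12 ± 0.35, atgsnor1-3 by -0.73 ± 0.35 and sid2 by -0.99 ± 0.35. None of these differences passed the test (limma adjusted p of 0.179, 0.169 and 0.188), so a smaller fall in Col-0 was not shown.

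GSTU27 separated the genotypes after avrB. Before treatment its signal lay between 326 and 421 units on all 8 untreated arrays. In atgsnor1-3 GSTU27 read 59.9 and 55.1 units after avrB, against 326 and 329 untreated. The sid2 plants had 114 and 112 units after avrB, against 383 and 388 untreated. These 4 avrB arrays lay below every other array of the study for this gene. In atgsnor1-1 the values were 268 and 280 units after avrB, against 370 and 421 untreated. Col-0 gave 262 and 246 units after avrB, against 369 and 414 untreated. GSTU27 fell in atgsnor1-3 (log2 difference -2.51 ± 0.14, limma adjusted p = 8.69e-10) and in sid2 (-1.78 ± 0.14, limma adjusted p = 8.61e-08). It was not called in atgsnor1-1 (-0.53 ± 0.14, limma adjusted p = 0.00886) or in Col-0 (-0.62 ± 0.14, limma adjusted p = 0.00425). In both it was lower after avrB but the size missed the threshold.

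The genotypes were also compared directly after avrB. GSTU27 was lower than in Col-0 by a log2 difference of -2.14 ± 0.14 in atgsnor1-3 (limma adjusted p = 3.58e-08) and of -1.17 ± 0.14 in sid2 (limma adjusted p = 1.86e-04). In atgsnor1-1 the difference from Col-0 was 0.11 ± 0.14 (limma adjusted p = 0.883). Its response differed from that of Col-0 by -1.89 ± 0.20 in atgsnor1-3 (limma adjusted p = 1.49e-05) and by -1.15 ± 0.20 in sid2 (limma adjusted p = 0.00407). These comparisons share the Col-0 arrays. Between the 2 insertion lines, which share no array, GSTU27 was lower in atgsnor1-3 than in atgsnor1-1 after avrB by -2.25 ± 0.14 (limma adjusted p = 1.4e-08). Between atgsnor1-3 and sid2 after avrB it differed by -0.97 ± 0.14 (limma adjusted p = 2.07e-04), a size just under the threshold, in a comparison added after the signals had been seen. No other member was called for sid2 against Col-0 after avrB, or for the difference of its response from that of Col-0.

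**Figure D2:**
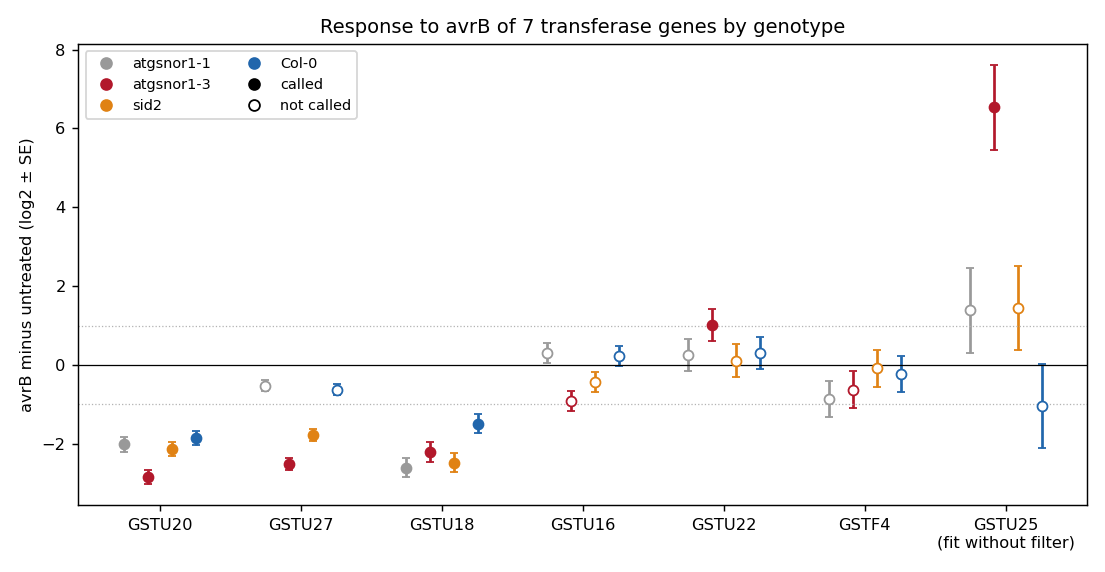
Response to avrB (avrB minus untreated, log2, vertical bars ± SE from limma) of the 6 transferase genes above the filter and of GSTU25 from the fit without the filter, by genotype. Filled points are called and open points are not, and dotted lines mark a log2 difference of 1 in either direction. GSTU20 and GSTU18 are called lower in 4 genotypes, GSTU27 in atgsnor1-3 and sid2, and GSTU25 is called higher in atgsnor1-3 at 6.54.

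GSTU25 was high in 1 group only. This enzyme is known to conjugate glutathione to the explosive trinitrotoluene. After avrB it read 308 and 410 units in atgsnor1-3, against 4.65 and 3.15 units in untreated atgsnor1-3. The other 14 arrays, of all genotypes and both states, lay between 1.48 and 20.8 units. The lower atgsnor1-3 avrB array was therefore 14.8 times the highest of them. AvrB arrays gave 2.12 and 8.64 units in atgsnor1-1, 14.5 and 14.6 in sid2 and 2.46 and 20.8 in Col-0. Untreated arrays gave 1.81 and 1.48 units in atgsnor1-1, 1.95 and 14.5 in sid2 and 17.1 and 12.6 in Col-0. At such levels the arrays of a group differed by up to several fold, so the sizes below are far less firm than their direction.

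GSTU25 lies outside the filtered test because its mean over the arrays was dim, with 20.8 units or less in 7 of the 8 groups. In the fit to all 22746 probe sets it rose in atgsnor1-3 by a log2 difference of 6.54 ± 1.07 (limma adjusted p = 1.23e-04). In that fit 9.96% of all probe sets were called higher in the same comparison. The responses in the other genotypes were not called, at 1.39 in atgsnor1-1, 1.45 in sid2 and -1.04 in Col-0. The atgsnor1-3 response exceeded that of Col-0 by 7.57 ± 1.52 (limma adjusted p = 0.00357, 3.84% of probe sets called higher). After avrB, GSTU25 was higher in atgsnor1-3 than in Col-0 by 5.64 ± 1.07 (limma adjusted p = 0.00166, 2.76% called higher). Against atgsnor1-1 the difference was 6.38 ± 1.07 (limma adjusted p = 5.17e-04, 3.57% called higher). Against sid2, in the comparison added after the signals had been seen, it was 4.61 ± 1.07 (limma adjusted p = 0.0102, 1.6% called higher). This call was lost when any 1 of the 4 arrays was left out, with values of 3.92 to 4.82 over all alternatives.

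Smaller differences were seen for GSTU22 and GSTU16. GSTU22 read 48.2 and 46.5 units in atgsnor1-3 after avrB, against 24.4 and 22.5 untreated. The other 14 arrays lay between 15.1 and 35.5 units, so both atgsnor1-3 avrB arrays were the highest of the study for this gene. The atgsnor1-3 response was 1.01 ± 0.41 (limma adjusted p = 0.0483), a call lost under 8 of 10 alternative settings, the removal of any of the 4 arrays among them, with values of 0.79 to 1.34. After avrB GSTU22 was higher in atgsnor1-3 than in atgsnor1-1, with 22.5 and 15.2 units in atgsnor1-1, by 1.36 ± 0.41 (limma adjusted p = 0.022). Leaving out 1 array ended this call in 3 cases, namely atgsnor1-1 avrB replicate 2 and either atgsnor1-3 avrB replicate.

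GSTU16 read 61.0 and 67.3 units after avrB in atgsnor1-3, against 106 and 136 untreated. In Col-0 it read 90.9 and 84.1 units after avrB, against 87.4 and 63.2 untreated. The 2 states did not overlap in atgsnor1-3 and sid2, which was also so for 75% and 73.3% of all probe sets. They overlapped in atgsnor1-1 and Col-0, where 67.9% and 62.3% of all probe sets did not. The atgsnor1-3 response was -0.91 ± 0.25 (limma adjusted p = 0.0057), under the size for a call, and it was lower than the Col-0 response by -1.14 ± 0.35 (limma adjusted p = 0.0319). That difference ranged from -1.38 to -0.91 over 15 alternative settings. Its call was lost under 8 of them, 6 of which left out 1 array: Col-0 untreated replicate 2, atgsnor1-3 untreated replicate 2, or any of the 4 avrB arrays of these genotypes. In atgsnor1-1 GSTU16 read 114 and 71.6 units after avrB, against 78.9 and 68.2 untreated, and in sid2 78.5 and 78.8 after avrB, against 121 and 93.1 untreated.

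The only phi gene above the filter, GSTF4, was called in none of the 16 comparisons. It read 12.2 and 19.9 units after avrB in atgsnor1-1, against 26.7 and 29.9 untreated. In atgsnor1-3 it read 13.2 and 24.3 units after avrB, against 21.1 and 36.0 untreated. Sid2 gave 24.1 and 22.7 units after avrB, against 20.9 and 29.4 untreated, and Col-0 gave 35.2 and 26.6 after avrB, against 36.1 and 35.3 untreated. The 2 states overlapped in atgsnor1-3 and sid2 and not in atgsnor1-1 and Col-0, where 67.9% and 62.3% of all probe sets did not overlap either. The GSTF4 response was -0.86 ± 0.46 in atgsnor1-1, -0.62 ± 0.46 in atgsnor1-3, -0.09 ± 0.46 in sid2 and -0.22 ± 0.46 in Col-0. All 4 values are under the size for a call.

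**Figure D3:**
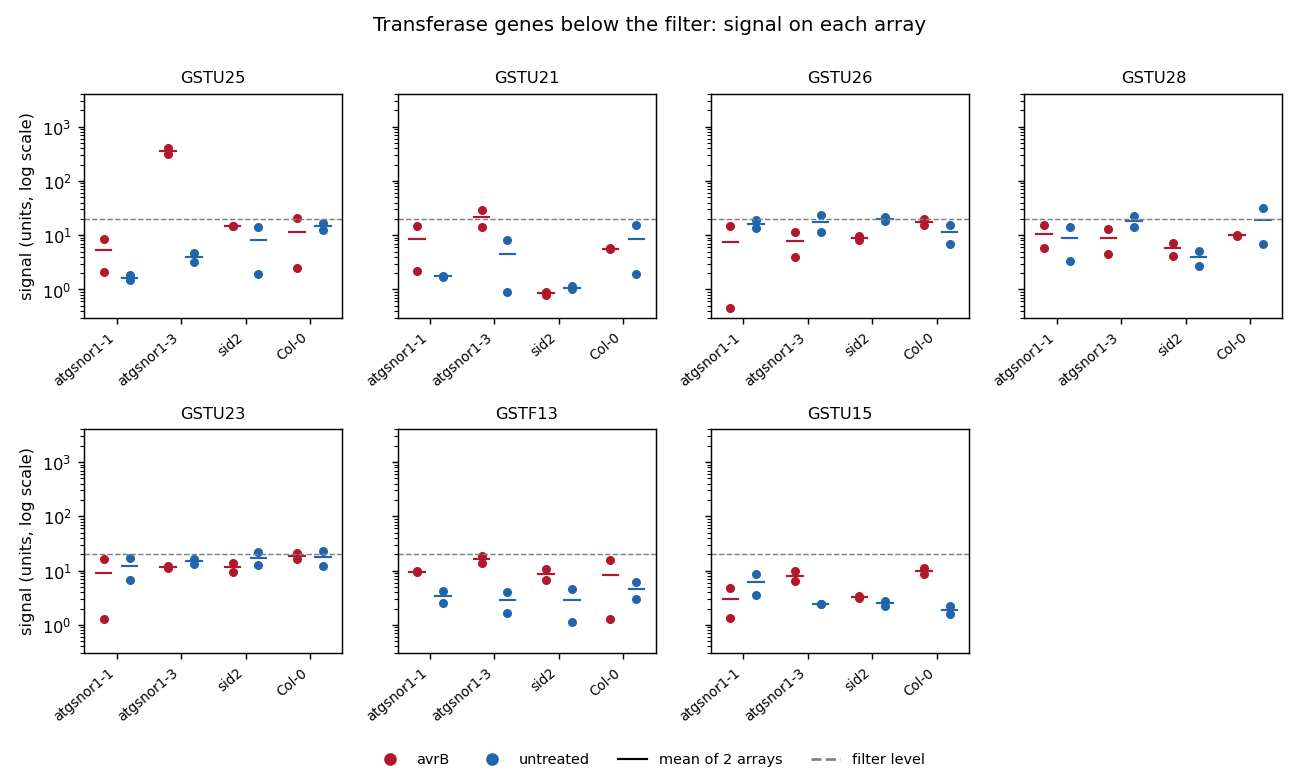
Signal of the 7 transferase genes below the filter on each of the 16 arrays, in arbitrary units on a log axis, with avrB (red) left of untreated (blue) in each genotype. Points are single arrays, short bars the mean of 2 arrays, and the dashed line is the filter level of 20.2 units, which was applied to the mean of log2 signals. GSTU25 stands at 308 and 410 units in atgsnor1-3 after avrB, and no other signal in these 7 panels exceeds 31.7 units.

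The other 6 dim members stayed at or below 31.7 units on all 16 arrays. GSTU21 read 14.1 and 29.5 units in atgsnor1-3 after avrB, against 0.913 and 8.28 untreated. On the other 14 arrays GSTU21 was between 0.785 and 15.5 units, so its highest array is one of atgsnor1-3 after avrB but the groups meet. Its atgsnor1-3 response was not called (2.89 ± 1.24, limma adjusted p = 0.0866). GSTU21 was higher in atgsnor1-3 than in sid2 after avrB, where it read 0.785 and 0.915 units, by 4.59 ± 1.24 (limma adjusted p = 0.0261). That comparison was added after the signals had been seen, and for GSTU21 it sets the highest group mean against the lowest. This call was lost under 5 of 9 alternatives, the removal of any of the 4 arrays among them, with values of 1.55 to 5.12. The remaining 5 were called in no comparison of the fit to all probe sets. Their signals ranged from 1.32 to 11.3 units for GSTU15, 1.27 to 23.4 for GSTU23, 0.446 to 23.7 for GSTU26, 2.69 to 31.7 for GSTU28 and 1.12 to 18.4 for GSTF13. Across GSTU21 and these 5 genes, 9 of 96 tests had an unadjusted limma p under 0.05, with no share over all probe sets to set beside it. These tests reuse the same arrays and are not independent, so nothing is read from the count. Whether the 5 genes are transcribed in these leaves cannot be read from such signals.

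The counts over the family stood as follows against all probe sets tested. After avrB, 0 of 6 members were called higher and 2 lower in atgsnor1-1, where 8.58% of all probe sets were called higher and 10.5% lower. In atgsnor1-3, 1 was called higher and 3 lower, where 15% of probe sets were called higher and 20% lower. In sid2, 0 were called higher and 3 lower, against 10.9% and 11.6% of probe sets. In Col-0, 0 were called higher and 2 lower, against 7.31% and 5.07% of probe sets. The 6 members had a median log2 response of -0.69 in the atgsnor1-1 line, -1.56 in atgsnor1-3, -1.10 in sid2 and -0.42 in Col-0. Over all probe sets tested it was -0.08, -0.15, -0.16 and -0.12 in the same order of genotypes. These counts leave out GSTU25, and 6 genes are too few to speak for the family.

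After avrB, 1 of 6 members was called lower in atgsnor1-3 than in Col-0 (8.76% of probe sets) and 1 lower in sid2 than in Col-0 (0.967%), in both cases GSTU27. For atgsnor1-1 against Col-0 after avrB, 0 members were called by limma, where 0.161% of probe sets were called in either direction. At an unadjusted limma p under 0.05 there were 2 of 6 members and 1394 of 13647 probe sets. Of the response differences from Col-0, those of GSTU27 and GSTU16 were called in atgsnor1-3 (8.27% of probe sets called lower) and that of GSTU27 in sid2 (0.681% called lower). For atgsnor1-1, 0 were called by limma, against 0.557% of probe sets in either direction. Here 1 of 6 members and 1668 of 13647 probe sets had an unadjusted limma p under 0.05. Between atgsnor1-3 and atgsnor1-1 after avrB, 2 members were called, where 14.4% of probe sets were. Between atgsnor1-3 and sid2 after avrB, the comparison added later, 0 were called by limma, where 8.86% of probe sets were. There 3 of 6 members and 4209 of 13647 probe sets had an unadjusted limma p under 0.05.

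Resting levels gave no call. In untreated leaves 0 of 6 members were called by limma in atgsnor1-1 against Col-0 (0 at an unadjusted p under 0.05), in atgsnor1-3 against Col-0 (1) and in sid2 against Col-0 (0). Over all probe sets, 0.147%, 8.79% and 5.92% were called in those comparisons. An unadjusted limma p under 0.05 was found for 1172, 4185 and 3225 of the 13647 probe sets in the same order. The 6 members differed from Col-0 by -0.64 to 0.47 in atgsnor1-1, by -0.37 to 0.69 in atgsnor1-3 and by -0.52 to 0.51 in sid2. Between untreated atgsnor1-3 and untreated atgsnor1-1, 0 members were called by limma, where 6.25% of probe sets were. The 6 members differed by -0.43 to 0.71. Of them 2 had an unadjusted limma p under 0.05, as had 3530 of the 13647 probe sets. None of the 7 dim members was called in these untreated comparisons of the fit to all probe sets, where 0.044%, 5.46%, 3.5% and 3.95% of probe sets were called in the same order. The genotype differences of GSTU27 and GSTU25 described above were therefore not called before treatment. Equal resting levels of GSTU25 were not shown by this. In that fit untreated GSTU25 differed from Col-0 by -3.16 ± 1.07 in atgsnor1-1, -1.94 ± 1.07 in atgsnor1-3 and -1.46 ± 1.07 in sid2, at signals of 17.1 units or less. The atgsnor1-3 value enters its response difference of 7.57.

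Several members are neighbours on the chromosome, according to the TAIR10.1 annotation used for their names. GSTU23, GSTU22, GSTU21 and GSTU20 follow each other on chromosome 1 with 0 protein-coding genes between them. Within this run GSTU20 fell after avrB in all 4 genotypes, GSTU22 had its highest signals in atgsnor1-3 after avrB, and GSTU23 stayed at or below 23.4 units throughout. GSTU25 and GSTU26 are also adjacent on chromosome 1. GSTU26 read 11.6 and 4.04 units in atgsnor1-3 after avrB, where GSTU25 read 308 and 410. GSTU27 and GSTF13 lie on chromosome 3, and the other 11 members on chromosome 1. All 13 probe sets carry the array's plain suffix, which its maker gives to probe sets designed for 1 transcript, but signal shared between related copies was not tested.

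**Figure D4:**
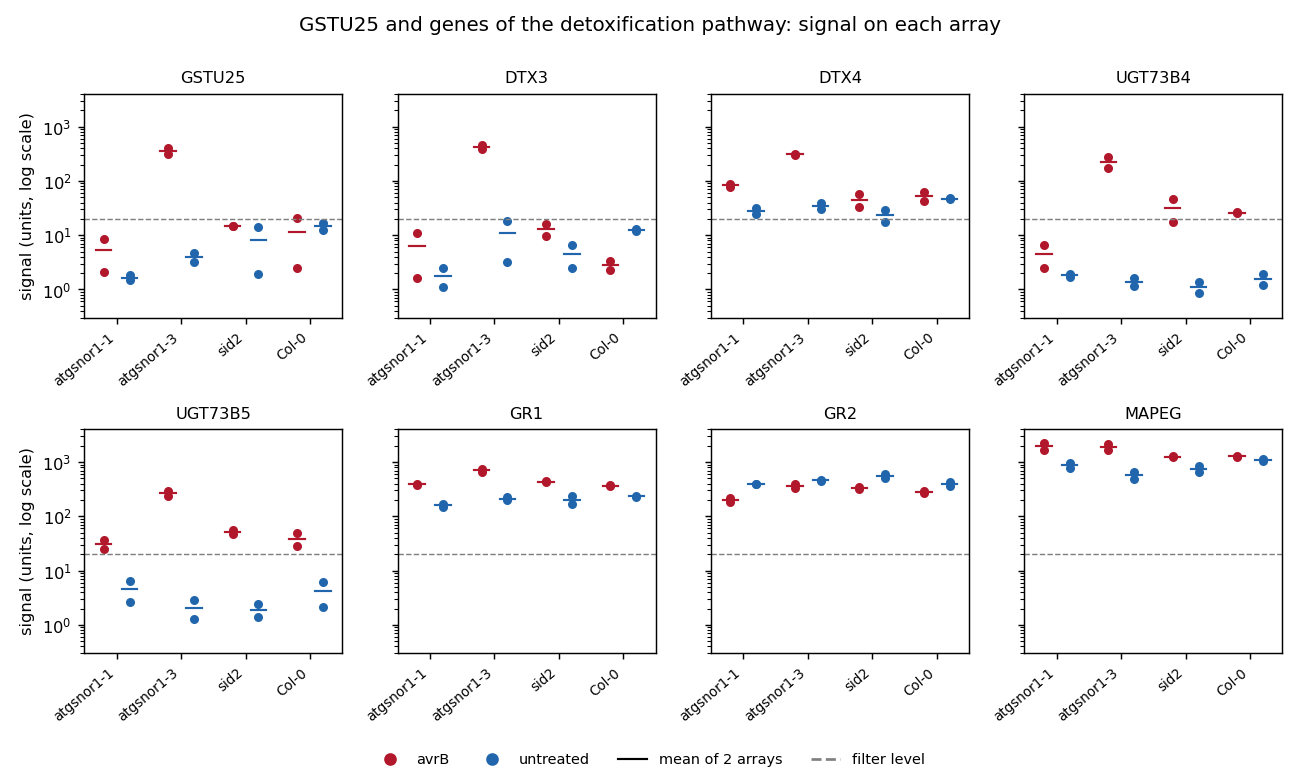
Signal of GSTU25 and of 7 listed genes on each of the 16 arrays, in arbitrary units on a log axis. The listed genes encode glutathione reductases, a transferase-like protein, efflux carriers and glucosyltransferases. Within each genotype avrB (red) stands left of untreated (blue). Points are single arrays, short bars the mean of 2 arrays, and the dashed line the filter level of 20.2 units. In atgsnor1-3 after avrB, GSTU25, DTX3, DTX4, UGT73B4, UGT73B5 and GR1 each lie above their own 14 other arrays. MAPEG is as high in atgsnor1-1 after avrB. The lists were chosen with earlier results of these data known, so this shared peak is not an independent result. The share of all probe sets with such a peak was not counted, so how unusual it is cannot be read here.

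Genes outside the family were taken from 6 lists, which were chosen with earlier results of these data known. For glutathione synthesis, reduction and breakdown, 2 of 11 listed genes had a probe set. Here and for the lists below, that means a probe set which the annotation used gives to that gene alone. Whether other probe sets of the array measure further listed genes was not examined. GR1 is the cytosolic and peroxisomal glutathione reductase, which regenerates reduced glutathione, and GR2 is the reductase of chloroplasts and mitochondria. GR1 read 662 and 748 units in atgsnor1-3 after avrB, against 228 and 197 untreated. Every other array was at or below 442 units. GR1 rose by 1.27 ± 0.17 in atgsnor1-1, 1.73 ± 0.17 in atgsnor1-3 and 1.12 ± 0.17 in sid2 (limma adjusted p of 6.09e-05 or less), and its 0.65 in Col-0 was under the size for a call. Without sid2 untreated replicate 2 the sid2 value was 0.87, under that size too. GR2 was lower after avrB with a limma adjusted p under 0.05 in atgsnor1-1 (-0.98 ± 0.15), sid2 (-0.72 ± 0.15) and Col-0 (-0.49 ± 0.15), in each case under the size for a call. In atgsnor1-3 its response was -0.34 ± 0.15 (limma adjusted p = 0.0643). Of 10 other transferase-like genes 2 had a probe set. MAPEG is a membrane-bound glutathione transferase-like protein. It read 2265 and 1644 units in atgsnor1-1 after avrB, against 763 and 976 untreated, and 1670 and 2197 units in atgsnor1-3 after avrB, against 496 and 667 untreated. Col-0 gave 1265 and 1309 units after avrB, against 1157 and 1050 untreated, so resting levels differed as well as levels after avrB. Untreated atgsnor1-3 was below untreated Col-0 by -0.94 ± 0.20 (limma adjusted p = 0.00416, under the size for a call). MAPEG rose by 1.16 ± 0.20 in atgsnor1-1 and 1.73 ± 0.20 in atgsnor1-3 (limma adjusted p of 3.11e-04 or less). In sid2 it was also higher after avrB, at 0.74 ± 0.20 (limma adjusted p = 0.00821), under the size for a call. Its Col-0 response was 0.22 ± 0.20 (limma adjusted p = 0.464). The lambda-class gene GSTL3 was called in no comparison. The atgsnor1-1 call of MAPEG was lost without untreated or avrB replicate 1 of that line, with values down to 0.93.

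Export and further detoxification had 2 genes each with a probe set, of 7 and 11 listed. DTX3 and DTX4 belong to the multidrug and toxin extrusion family of efflux carriers and lie 4 protein-coding genes apart on chromosome 2. DTX4, the only one of the pair above the filter, read 305 and 317 units in atgsnor1-3 after avrB, against 29.8 and 38.9 untreated. Its other 14 arrays reached at most 86.7 units. DTX4 rose in atgsnor1-1 by 1.55 ± 0.32 and in atgsnor1-3 by 3.19 ± 0.32 (limma adjusted p of 0.00121 and 4.3e-07), and was not called in sid2 (0.94) or Col-0 (0.15). DTX3, below the filter like GSTU25, read 382 and 469 units in atgsnor1-3 after avrB, against 18.5 and 3.23 untreated. All 14 other arrays of DTX3 were at or below 18.5 units. In the fit to all probe sets it rose in atgsnor1-3 by 5.77 ± 1.02 (limma adjusted p = 2.54e-04), with values of 4.51 to 7.04 under the alternatives. Its responses in atgsnor1-1 (1.38 ± 1.02), sid2 (1.61 ± 1.02) and Col-0 (-2.17 ± 1.02) were not called.

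UGT73B4 and UGT73B5 are adjacent genes for glucosyltransferases, which attach glucose to small molecules. Both were below the filter. UGT73B4 read 281 and 174 units in atgsnor1-3 after avrB, against 1.63 and 1.15 untreated. UGT73B5 read 293 and 236 units in atgsnor1-3 after avrB, against 1.3 and 2.82 units untreated. On their other 14 arrays they reached at most 45.6 and 57.0 units. Both also rose in sid2 and Col-0 in the fit to all probe sets, where 5.79% of probe sets were called higher in atgsnor1-1, 7.18% in sid2 and 4.64% in Col-0. Their untreated signals were at most 6.38 units, so the sizes that follow are far less firm than their direction. UGT73B4 rose by 7.33 ± 0.87 in atgsnor1-3, 4.72 ± 0.87 in sid2 and 4.11 ± 0.87 in Col-0 (limma adjusted p of 0.00369 or less). With a pseudocount of 9.51 units these became 4.4, 1.87 and 1.69. The UGT73B4 response in atgsnor1-1 was not called (1.17 ± 0.87, limma adjusted p = 0.436), with 6.72 and 2.46 units after avrB. UGT73B5 rose by 2.89 ± 0.75 in atgsnor1-1, 7.10 ± 0.75 in atgsnor1-3, 4.80 ± 0.75 in sid2 and 3.36 ± 0.75 in Col-0 (limma adjusted p of 0.0105 or less), which became 1.53, 4.56, 2.42 and 1.80 with the pseudocount. Its Col-0 call was lost without replicate 1 of either state (adjusted p up to 0.073) and its atgsnor1-1 call without replicate 2 of either state (up to 0.113). None of the 8 listed glutathione peroxidase-like genes and none of the 5 listed camalexin partners had a probe set annotated to it alone. They were not analysed here.

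Leaf markers moved with treatment as well. The mesophyll list (8 genes, 2 with a probe set) was represented by RCA, rubisco activase, and PRK, phosphoribulokinase of the Calvin cycle. Their summed signal was 4217 to 5621 units on the 8 avrB arrays, against 8270 to 12173 on the 8 untreated arrays. PRK fell by 1.72 on the log2 scale in atgsnor1-1, 2.11 in atgsnor1-3, 1.57 in sid2 and 1.02 in Col-0, beside the falls of GSTU18 and GSTU20. RCA was lower by less, at -0.95 ± 0.17 in atgsnor1-1, -0.74 ± 0.17 in atgsnor1-3, -0.89 ± 0.17 in sid2 and -0.76 ± 0.17 in Col-0, with limma adjusted p-values of 0.00432 or less but under the size for a call. After quantile normalization, and without replicate 1 of either Col-0 state, the Col-0 response of PRK missed the size for a call (-0.89 at the smallest). SAG101, the only senescence-list gene of 4 with a probe set, read 64.7 to 158 units on avrB arrays, against 29.3 to 72.7 untreated. It was called higher in atgsnor1-1 (1.33 ± 0.31), sid2 (2.14 ± 0.31) and Col-0 (1.27 ± 0.31), and not in atgsnor1-3 (0.88 ± 0.31), where it read 92.8 and 64.7 units after avrB. Its atgsnor1-1 call was lost without avrB replicate 2, and its Col-0 call without untreated replicate 2 or avrB replicate 1. The guard cell list (2 of 4) summed to 187 to 349 units on avrB arrays, against 211 to 380 untreated. These ranges pool opposite movements. In Col-0 the sum was 266 to 268 after avrB, against 211 to 218 untreated. It was 187 to 225 in atgsnor1-1, against 298 to 347, 298 to 349 in atgsnor1-3, against 367 to 380, and 212 to 228 in sid2, against 218 to 279. In atgsnor1-1 GC1 gave -0.91 ± 0.19 (limma adjusted p = 0.00141) and FAMA 0.28 ± 0.31 (limma adjusted p = 0.541), neither called. The root gene EXP7, the only one of 5 with a probe set, was between 3.00 and 44.2 units. The part of these movements in the transferase results was not tested, and in whole leaf tissue fewer cells of a type and less RNA per cell cannot be told apart.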

How the data were processed

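Total RNA of Arabidopsis leaves was labelled by the one-cycle protocol and hybridised to 16 single-colour ATH1 arrays, 2 for each of 8 groups taken from the sample titles. One sid2 avrB array, titled with both numbers, was treated as replicate 2. The authors deposited a linear intensity for each probe set, made with MAS5 and GCOS per the submitters' processing notes. No source used here gives their versions. The deposited table holds 22810 probe sets from 0.0236 to 18429.6 units, with a mean of 100.01 after trimming 2% at each end. Detection calls were not used here.

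From these, 64 control probe sets were left out, signals were taken to log2 without background correction or further scaling, and the dimmest 40% by mean were removed. The array annotation gave 13513 probe sets 1 gene, 503 several and 8730 none. Of those with 1 gene, 13436 matched a TAIR10.1 locus. A model with 1 mean per group was fitted to all 16 arrays (limma 3.58.1 in R 4.3.3, eBayes with a variance trend, 8 residual degrees of freedom), and p-values were Benjamini-Hochberg adjusted within each comparison. There were 15 planned comparisons and 1 added later. The number of arrays limits the precision.

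Every member with a single-gene probe set could be named, with full values where it was called, and genes outside the family only from 6 pathway lists and a marker list. The members and lists were chosen with earlier results of these data known. The settings varied were the normalization (quantile), the filter (none, or the dimmest 60%), a pseudocount of 9.51 units, the variance trend (none), a replicate block, the arrays fitted (only the groups compared), and leaving out each array in turn. Figures were drawn with matplotlib 3.10.9 in Python 3.11.15.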

Additional observations from a re-analysis of the deposited data

Results flagged for a closer look

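Responses to avrB that differed between genotypes by the interaction test of limma are given here, as log2 differences from the Col-0 response. For atgsnor1-3, family members with such a difference were GSTU27 at -1.89 (adjusted p = 1.49e-05), GSTU16 at -1.14 (adjusted p = 0.0319) and, in the fit without the filter, GSTU25 at 7.57 (adjusted p = 0.00357). The GSTU25 difference has a standard error of 1.52, and the 6 arrays of this contrast other than those of atgsnor1-3 after avrB lay between 2.46 and 20.8 units. For sid2, GSTU27 differed by -1.15 (adjusted p = 0.00407).

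Among the pathway genes, the atgsnor1-3 response exceeded that of Col-0 by 3.04 for DTX4 (limma adjusted p = 2.19e-04), by 1.51 for MAPEG (adjusted p = 0.00156) and by 1.09 for GR1 (adjusted p = 0.00423). For MAPEG, atgsnor1-3 was 0.57 above Col-0 after avrB and differed from it by -0.94 when untreated (neither called). The GR1 value fell under the size for a call, to 0.98 at the lowest, without replicate 2 of untreated or avrB-treated atgsnor1-3. In the fit without the filter DTX3 differed by 7.95 ± 1.44 (limma adjusted p = 0.00169), with values of 5.35 to 9.21 under the alternatives. Its Col-0 response of -2.17 ± 1.02, not called, enters this difference. DTX3 read 12.0 and 12.8 units in untreated Col-0 and 2.26 and 3.37 after avrB, so the size is far less firm than the direction. UGT73B5 differed by 3.74 (limma adjusted p = 0.0344), a call lost under 7 of 13 alternatives. The response of the mesophyll marker PRK was lower in atgsnor1-3 than in Col-0, at -1.09 (limma adjusted p = 0.0029), and this call was lost under quantile normalization and without Col-0 untreated replicate 2 or atgsnor1-3 avrB replicate 2. The other measured mesophyll marker, RCA, gave 0.02 ± 0.25 for the same difference (limma adjusted p = 0.961). All of these differences share the Col-0 arrays. The part of PRK's movement in the transferase results was not tested.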

How the results depend on the processing

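The 18 calls of members above the filter were recomputed under 7 alternatives and without each array in turn. Of them 15 held throughout, 3 were lost somewhere (GSTU22 in 2 comparisons and GSTU16 in 1) and 0 changed direction. Of 6 calls in the fit without the filter, 4 held, all of GSTU25, and those of GSTU25 and GSTU21 against sid2 were lost somewhere. The GSTU25 response in atgsnor1-3 ranged from 4.77 to 6.84. Without the filter, 2 members were called for atgsnor1-3 against Col-0 after avrB (main 1, GSTU25 gained) and 2 for atgsnor1-3 against sid2 after avrB (main 0, GSTU21 and GSTU25 gained). With only the groups compared in the fit, 1 member was called for the atgsnor1-3 response minus that of Col-0 (main 2, GSTU16 lost) and 1 for atgsnor1-3 against sid2 after avrB (GSTU22 gained), as also without a variance trend (1). With the dimmest 60% left out, 1 was called for atgsnor1-3 against atgsnor1-1 after avrB (main 2), because GSTU22 was no longer tested. Leaving out 1 array gave 1 to 3 calls for the response difference of atgsnor1-3 from Col-0, 1 to 2 for atgsnor1-3 against atgsnor1-1 after avrB, 0 to 1 for atgsnor1-3 against sid2 after avrB and 3 to 4 for the atgsnor1-3 response. Apart from the filter, the cause was not tested.

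Same-numbered arrays deviated together in 1 of 28 group pairs (r from -0.15 to 0.10), so the numbers were not taken as pairs. With the replicate block, 3 members were called for the atgsnor1-3 response in place of 4, and the other counts of members did not change. Counts over all probe sets moved by over 1.5 times in 6 comparisons. With only the groups compared they were 782 against 1199 for untreated atgsnor1-3 and 374 against 205 for sid2 after avrB, both versus Col-0, and 222 against 355 without a variance trend for the sid2 response difference. For atgsnor1-1 they ranged from 6 to 83 (main 20) untreated, from 5 to 113 (main 22) after avrB and from 1 to 201 (main 76) for the response difference. Without a single array the sid2 counts fell to 94 after avrB and to 203 for the response difference. Signals under about 20 units, and 2 arrays per group, limit what can be said of the dim members.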
